A study of Macaca fascicularis with 21 samples.

Results

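Trophoblast is described here through the 380 cells, of 1453 annotated cells in all, that the authors' deposited annotation lists as TE and derivatives (trophectoderm and the cells that come from it). The cells came from 20 of 21 cynomolgus monkey (Macaca fascicularis) embryos grown in culture past the blastocyst stage, picked singly and profiled by RNA sequencing of 3' ends. There were 2 embryos of day 11, 5 of day 12, 3 of day 13, 4 of day 14, 4 of day 16 and 3 of day 17, all untreated as far as the labels say. A culture stage is the label of day 12 replicate 1 and of replicates 1 and 2 of days 13 and 17, and a developmental stage that of the other 16 embryos. Per the labels' protocols, extra-embryonic cells were removed under a microscope before picking, so the trophoblast cells are those that remained after dissection.

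Days 11 to 14 held 356 of the 380 cells and days 16 and 17 held 24. Single embryos gave from 0 trophoblast cells (day 16 replicate 3) to 53 (day 12 replicate 2). The other annotated cells were 304 epiblast (EPI), 485 extraembryonic mesenchyme (EXMC), 101 visceral or yolk sac endoderm (VE/YE), 82 amnion (AM), 83 gastrulating (Gast) and 18 primordial germ (PGC) cells. Counts per trophoblast cell ran from 3884 to 480058 (median 69067.5), with 2018 to 12884 genes counted (median 6971). The other cells had a median of 57713 counts and 6192 genes. The embryo is the replicate throughout, replicate numbers are only names, and p-values measure the spread between these embryos.

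Trophoblast is the outer lineage of the embryo that attaches to the uterus and builds the placenta. Cytotrophoblast cells divide and renew the tissue, and they fuse into syncytiotrophoblast, which makes chorionic gonadotropin, steroids and other hormones. Extravillous cells leave the placenta and invade the uterine wall with the help of matrix proteases and altered adhesion proteins. In primates, these states are told apart largely by hormone, cell cycle and matrix genes, and lists of such genes are followed below.

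The label was first checked against 5 trophoblast markers. These are GATA3 and GCM1 (transcription factors of the lineage, the second a driver of fusion), CGA (the alpha subunit of chorionic gonadotropin), KRT7 (a keratin of trophoblast epithelium) and INSL4 (an insulin-like peptide of the placenta). Of the 380 cells, 254 had a count for all 5, 85 for 4, 29 for 3, 10 for 2 and 2 for 1, and no cell lacked all of them. Averaged over embryos of days 11 to 14, all 5 of 5 were highest in trophoblast among the annotated families. GATA3 was the closest to another family, at 1.88 times its mean in amnion (2 embryos). The annotation was made from these same values, so the comparison with other types is a description and carries no test.

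Levels were then set side by side within the 16 embryos that had at least 5 trophoblast and 5 other cells, as counts scaled to a library of 1000000 (CPM) of the summed cells. GCM1 in trophoblast had a lowest, median and highest level of 163.6, 423.2 and 755.0 CPM, against 4.064, 14.16 and 57.7 CPM in the other cells. GATA3 ran over 170.8, 349.4 and 941.0 CPM against 13.56, 43.59 and 98.09 CPM. KRT7 ran over 95.75, 170.2 and 484.7 CPM against 7.024, 34.79 and 58.77 CPM. For these 3 genes the lowest trophoblast value lay above the highest value of the other cells, and the median log2 differences were 4.70, 3.29 and 2.51. INSL4 was higher in trophoblast in 16 of 16 embryos (median log2 difference 5.11), with 32.88, 378.0 and 1540 CPM against 0.338, 8.607 and 135.7 CPM, so the ranges overlapped. CGA differed from the rest: it was the most abundant marker (43.97, 9414 and 17190 CPM), yet the other cells also held 35.88, 998.3 and 3770 CPM, and trophoblast was higher in only 14 of 16 embryos. The 2 exceptions were of day 17, where trophoblast had 80.86 and 43.97 CPM against 147.2 and 109.2 CPM.

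**Figure D1:**
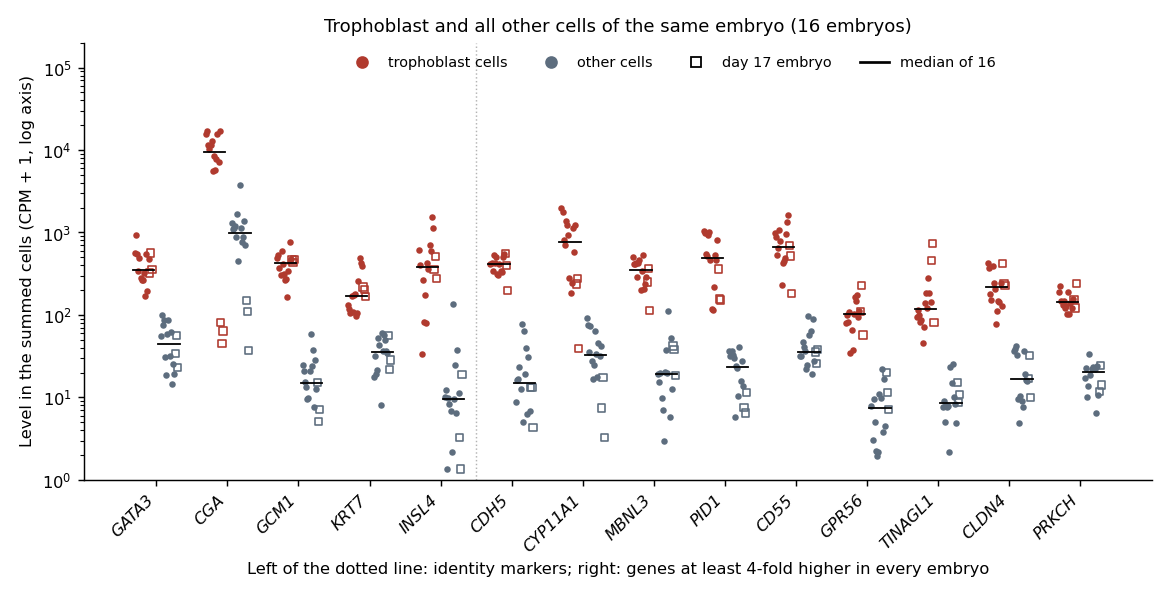
Level of each gene (CPM + 1, log axis) in the summed trophoblast cells (red) and in all other cells (grey) of each of 16 embryos; open squares are day 17 embryos and bars are medians. CGA at day 17 drops to 43.97 to 80.86 CPM in trophoblast, while GCM1, GATA3 and KRT7 stay apart from the other cells in all 16 embryos.

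Only 10 of 7423 genes (0.135%) with a mean of at least 20 CPM in trophoblast were at least 4-fold higher there in each of the 16 embryos. GCM1, given above, was 1 of them. CDH5 (VE-cadherin, a junction protein of endothelium that invading trophoblast also makes) had 196.1, 417.3 and 555.4 CPM against 3.318, 13.76 and 76.65 CPM, a median log2 difference of 4.81. CYP11A1, the enzyme that starts steroid synthesis from cholesterol, differed by 4.48, with 38.51, 756.0 and 2006 CPM against 2.281, 31.54 and 91.77 CPM. The splicing regulator MBNL3 and the adaptor gene PID1 differed by 4.45 and 4.43. CD55, which shields cells from complement, had 182.1, 674.5 and 1636 CPM against 18.42, 35.01 and 95.63 CPM, a difference of 4.15. The adhesion receptor GPR56, the matrix gene TINAGL1, the tight junction gene CLDN4 and the kinase PRKCH followed with 4.02, 3.65, 3.41 and 3.14. For all of these but CYP11A1 the 2 ranges were apart. The other cells are a pool of types, and single families could come close. Averaged over days 11 to 14, CLDN4 in trophoblast was only 1.07 times its mean in amnion (2 embryos). PRKCH was 3.13 times its mean in VE/YE. The rest of the 10 genes were at least 7.41 times (CYP11A1) the next family. The other cells of day 13 replicate 1 had the highest CGA (3770 CPM) and GCM1 (57.7 CPM) outside trophoblast, and without that embryo 27 genes met the same rule.

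The lists differed in how much they marked the type. Trophoblast held the highest mean level of days 11 to 14 for 10 of 14 hormone genes, 6 of 8 fusion genes, 18 of 24 transcription factors, 6 of 11 steroid genes and 15 of 32 invasive genes. The same held for 8 of 19 nutrient transport genes, 5 of 18 cytotrophoblast genes and 4 of 40 proliferating genes. Over all 10498 genes with at least 20 CPM in a family the share was 26.9%. List members were counted without this floor, so the shares are not fully alike. Median log2 differences between trophoblast and the other cells were taken over genes with a mean of at least 20 CPM in trophoblast. Members low in trophoblast were thus left out. This kept 9 of 14 hormone genes, 23 of 24 transcription factors and 7 of 11 steroid genes. It also kept 7 of 8 fusion, 25 of 32 invasive and 36 of 40 proliferating genes. The medians were 3.16 for hormones, 2.61 for transcription factors, 1.99 for steroid synthesis, 1.65 for fusion and 1.35 for the invasive list. The proliferating list had -0.52, and all genes kept had 0.16. The hormone genes left out were INHA (0.85), KISS1 (0.01), CSH2 (-0.36), PAPPA2 (-0.62) and PAPPA (-1.44).

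Hormone genes were spread unevenly over the trophoblast cells. CGA was counted in 356 of 356 cells of days 11 to 14, with 302.1 CPM in the lowest, a median of 7924 CPM and 104600 CPM in the highest. It was also counted in 170 of 170 EPI cells of the same days (median depth 57125.5 counts against 70056 in trophoblast), at a median of 1037 CPM. A CGA count in a cell was thus no mark of trophoblast, and 66.3% of trophoblast cells exceeded 4446 CPM, the 95th percentile of all cells of other types. LHB, a gonadotropin beta subunit whose reads may be shared with near-identical chorionic gonadotropin genes, was counted in 62.6% of trophoblast cells (exact 95% binomial interval 57.4 to 67.7%) and 26.5% of EPI cells. INSL4 was counted in 80.9% against 41.2%.

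LEP encodes leptin, which the placenta secretes. It was counted in 53.1% of trophoblast cells (47.8 to 58.4%) and in 47.1% of EPI cells (39.4 to 54.9%), so the share alone did not mark the type. The levels were further apart: 21.1% of trophoblast cells exceeded 125.2 CPM, the 95th percentile of other cells, against 2.35% of EPI cells, and the highest cell had 8179 CPM. CRH, the placental corticotropin-releasing hormone, was counted in 12.1% of trophoblast and 12.4% of EPI cells, a share no higher than in EPI. The highest CRH cell, however, had 3363 CPM in trophoblast and 166.6 CPM in EPI. When every cell was thinned to 10000 counts, which left 329 trophoblast and 157 EPI cells, LEP was counted in 32.8% against 14.0%, LHB in 33.7% against 6.37%, INSL4 in 64.7% against 11.5% and CRH in 4.86% against 1.27%. Intervals cover counting error only.

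The enzymes of progesterone synthesis and the fusion genes showed different spreads. HSD3B1, which makes progesterone, was counted in 96.6% of trophoblast cells and after thinning in 94.5%, against 31.8% of thinned EPI cells. CYP11A1 behaved alike, with 89.7% against 35.0% after thinning. GCM1 was counted in 86.6% of thinned trophoblast cells against 14.0% of EPI cells, and 80.6% of unthinned trophoblast cells exceeded the 95th percentile of other cells. ERVFRD-1 (syncytin-2, a retroviral envelope protein that fuses cells) was present in fewer cells, 26.7% against 9.55% after thinning, with a highest cell of 2711 CPM.

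Of the 40 proliferating genes, 4 (CCNB1, CCNE2, CDC6 and RRM2) had their highest family mean in trophoblast, and MKI67 and TOP2A did not. MKI67, a protein of dividing nuclei, was counted in 80.9% of trophoblast cells (median 123.4 CPM) and 91.2% of EPI cells (median 135.3 CPM). TOP2A, the topoisomerase that untangles replicated DNA, had a median of 175.3 CPM against 838.7 CPM. After thinning, MKI67 was counted in 61.7% against 72.6% and TOP2A in 66.9% against 98.1%. Trophoblast cells without a count of these genes were therefore more frequent than EPI cells without one at the same depth.

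Among invasive genes, 2 kinds of spread were seen. MMP2, a collagen-degrading protease, was counted in 98.6% of trophoblast cells at a median of 1192 CPM, and in 98.8% of EPI cells at 163.3 CPM. LAIR2, a secreted decoy receptor for collagen, had medians of 597.8 CPM in trophoblast and 147.9 CPM in EPI. PRG2 (the secreted proteoglycan that binds the protease PAPPA) and MMP12 (a macrophage-type elastase) were instead absent from most cells, with a count in 35.7% and 20.2% of trophoblast cells and 19.4% and 17.6% of EPI cells. Their highest trophoblast cells reached 16350 and 13850 CPM, against 1352 and 675.9 CPM in EPI.

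To ask how hormone, proliferating and invasive genes lay over the same cells, each cell was given the mean log2(CPM + 1) over each list, on cells thinned to 10000 counts (322 cells of 12 embryos of days 11 to 14 with at least 10 trophoblast cells). Spearman's rho between cells was computed within each embryo, as a description with no p, since cells of 1 embryo share library and depth. The proliferating and hormone scores ran against each other in 12 of 12 embryos, with a median rho of -0.57 (lowest -0.76, highest -0.38). Proliferating and fusion scores had a median of -0.45, and proliferating and invasive scores -0.38, negative in 11 of 12 embryos. Hormone and fusion scores went together (median 0.61, from 0.21 to 0.95), as did hormone and invasive scores (0.51, negative in 2 of 12 embryos). Steroid and invasive scores had a median of 0.08 that varied between embryos (from -0.28 to 0.76), and of 0.30 unthinned. Proliferating and cytotrophoblast scores had a median rho of 0.22.

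The overlap of the extreme cells showed the same order. The cuts were taken over the cells of all embryos together, so differences between embryos and days enter these overlaps. For unrelated scores, the share expected is that of each set among all cells, 83 of 329. Of 329 thinned cells of days 11 to 14, the 83 with the highest proliferating score and the 83 with the highest hormone score shared 3 cells (3.61% of each). The highest proliferating and invasive cells shared 9 (10.8%). The highest hormone cells shared 38 with the highest invasive cells (45.8%) and 47 with the highest fusion cells (56.6%). The median rho of the thinned scores with depth was -0.04 for proliferating, 0.03 for hormone and 0.05 for invasive. Single embryos varied widely, from -0.864 to 0.394, from -0.374 to 0.555 and from -0.276 to 0.435. A relation with depth thus remained in some embryos, in either direction. The unthinned scores had medians of 0.47, 0.27 and 0.45. Without thinning, the median rho was -0.32 between the proliferating and hormone scores and -0.03 between the proliferating and invasive scores.

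**Figure D2:**
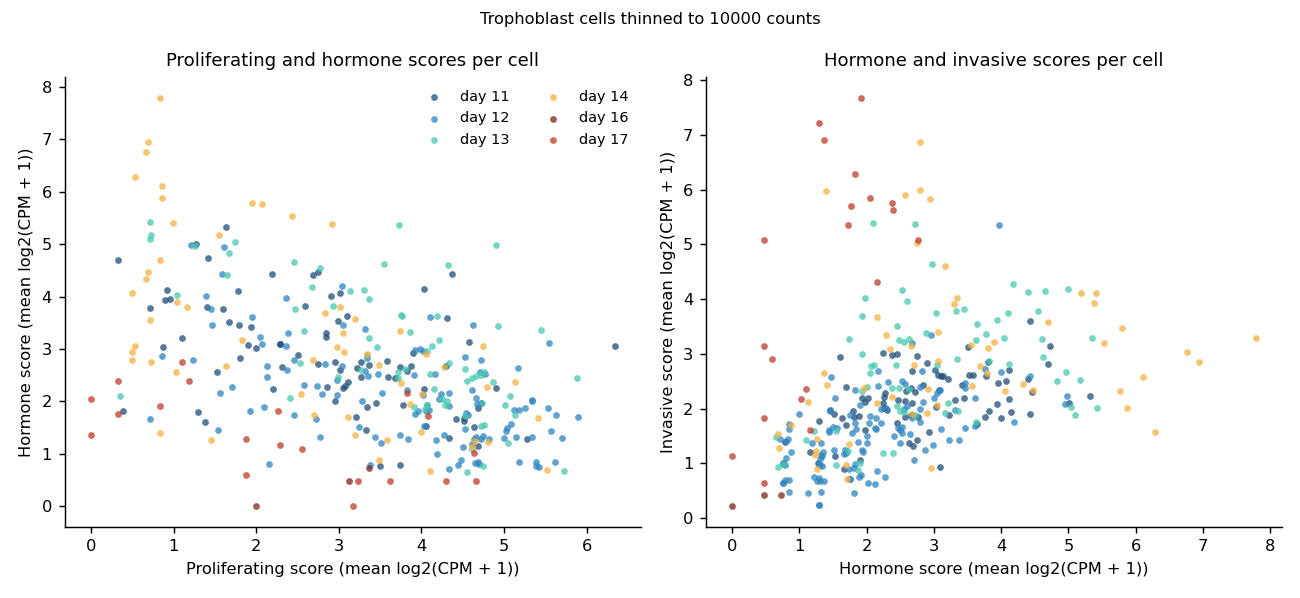
Scores of single trophoblast cells thinned to 10000 counts, as mean log2(CPM + 1) over each list, coloured by day; left, hormone against proliferating score, and right, invasive against hormone score. Cells high in both the proliferating and the hormone list are few (3 of the highest 83 of each), and several day 17 and day 14 cells have a high invasive and a low hormone score.

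Single genes were then compared between the trophoblast cells above and below their own embryo's median proliferating score (12 embryos, 349 cells, embryo as a block). Genes of the proliferating list defined the groups and are not reported. The groups are ranges of a score from the same cells and not cell types, 24 cells lay within 0.1 log2 of a median, and the calls describe which genes went with the score. With edgeR's quasi-likelihood test, 2011 of 13870 genes passed an adjusted p of 0.05 (14.5%), 843 of them higher (6.08%) and 1168 lower (8.42%) in cells above the median. Cells above the median were also deeper (median 101611.5 against 45197 counts), so the test was repeated on cells thinned to 10000 counts, where 463 (8.84%) were higher and 820 (15.7%) lower of 5236, and 1014 genes were called in both fits.

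Hormone genes were lower in cells with a high proliferating score. Of 12 tested, 7 were lower and 0 higher, with a median log2 difference of -2.05 against 0.07 over all genes, and after thinning 8 of 8 tested were lower. CGA had a lowest, median and highest level over the 12 embryos of 2413, 6252 and 10280 CPM above the median and 7314, 18690 and 30050 CPM below it. It was lower in 12 of 12 embryos although the ranges overlapped, with a log2 difference of -1.66 ± 0.18 (SE) and an edgeR adjusted p of 3.8e-05. LEP had 1.473, 28.52 and 436.4 CPM against 26.25, 564.1 and 2835 CPM (-3.54 ± 0.34, edgeR adjusted p = 1.62e-05), again lower in 12 of 12. LHB was lower in 11 of 12 embryos (-2.58 ± 0.31, medians 25.86 and 211.1 CPM). PGF, the placental growth factor of the VEGF family, was lower in 12 of 12 (-1.44 ± 0.14, medians 190.1 and 603.6 CPM). CRH was lower in 8 embryos and higher in 1 (-3.68 ± 0.63). The inhibin subunit INHA and the stress cytokine GDF15 differed by -2.14 and -2.23. INSL4 missed the threshold (-0.96, edgeR adjusted p = 0.101) and passed it after thinning (-1.13, edgeR adjusted p = 0.0121).

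Fusion, steroid and part of the invasive genes lay on the same side. Among 8 fusion genes 5 were lower and 0 higher: ERVFRD-1 by -2.51, MFSD2A (the receptor of syncytin-2) by -2.20, SDC1 (a heparan sulfate proteoglycan of the syncytial surface) by -2.19, DYSF by -1.96 and GCM1 by -0.94. Of 9 steroid genes 4 were lower: CYP11A1 by -1.28 ± 0.16 (medians 694.0 and 1188 CPM, 12 of 12 embryos), HSD3B1 by -1.24, FDX1 (the electron donor of CYP11A1) by -1.18 and HSD17B1 by -1.82. After thinning 5 of 6 fusion genes and 3 of 5 steroid genes tested were lower. DYSF and HSD17B1 were not among these calls. Of 29 invasive genes 9 were lower and 0 higher (median -0.49). LAIR2 was lower in 12 of 12 embryos (-1.66 ± 0.21, medians 1302 and 4549 CPM), and MMP2 also in 12 of 12 (-1.11 ± 0.28, medians 1420 and 2132 CPM). The membrane proteases MMP15 and MMP14 and the fibronectin receptor subunit ITGA5 differed by -2.12, -1.40 and -1.73. MMP12 was called (-3.64 ± 0.63) although it was lower in 7 and higher in 4 embryos.

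Transcription factors of the list were lower in 9 of 24 and higher in 1. GATA2 had medians of 317.0 against 897.6 CPM (-1.35 ± 0.14), and HOPX, VGLL3, TBX3, ARID5B and TFAP2A differed by -2.24, -1.74, -1.65, -1.39 and -1.04. GATA3 was not called (-0.22, edgeR adjusted p = 0.394), and KRT7 was lower (-0.69 ± 0.15, 12 of 12 embryos). The gene that was higher by most outside the list was FBN2, a microfibril protein, with medians of 44.99 against 4.667 CPM (3.24 ± 0.42, 12 of 12 embryos). The mitotic genes NDC80, ASPM, SGO2, DEPDC1, NCAPG, KIF4A and HJURP, which the list did not hold, were higher by 2.55, 2.50, 2.44, 2.42, 2.40, 2.33 and 2.33, as were the histone gene H1-3 (2.46) and TANGO6 (2.44). Of 16 cytotrophoblast genes 3 were higher and 3 lower, the lower ones being the keratins KRT7, KRT8 and KRT18. After thinning 2 were higher and 4 lower of 10 tested, and TEAD4 was not among the calls. The endocytic receptor LRP2 was higher (1.76 ± 0.40, medians 230.6 and 77.29 CPM, 11 of 12 embryos), as were TEAD4, the factor that specifies trophectoderm (1.15), and the adhesion gene EPCAM (0.74, edgeR adjusted p = 0.0801 after thinning).

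The reverse comparison took the trophoblast cells above and below their embryo's median hormone score. The same 349 cells enter, so it is not independent of the first, and 45 cells lay within 0.1 log2 of a median. Here depth differed less in the median over embryos (78017 against 65818.25 counts). Within single embryos it could differ widely, in either direction. Day 11 replicate 1 had 78409 against 27551 counts, and day 14 replicate 1 had 40225.5 against 128332 counts. edgeR called 2190 of 13755 genes (15.9%), 1406 higher (10.2%) and 784 lower (5.70%) in cells with a high hormone score. After thinning, 829 (15.8%) were higher and 418 (7.95%) lower of 5261.

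Among the 10 named genes that were higher by most outside the hormone list, PRR9 had medians of 34.3 and 0.1525 CPM (5.14 ± 0.49) and ASB2, a subunit of ubiquitin ligases, 220.6 and 6.081 CPM (5.05 ± 0.38), both higher in 12 of 12 embryos. ASB2 ran from 3.948 to 506.5 CPM above the median and from 0 to 21.05 CPM below it. DIO1, which activates thyroid hormone, was higher by 4.35 (medians 49.0 and 2.402 CPM). The pregnancy-specific glycoproteins PSG7 and PSG6, near-identical copies whose reads may be split, were higher by 5.07 and 4.62, and PHYHIPL, TMEM40, TTC39C, SBSN and PSCA by 4.80, 4.54, 4.34, 4.33 and 4.28.

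Fusion and regulatory genes rose with the hormone score. Of 8 fusion genes 6 were higher and 1 lower (SLC1A5, an amino acid carrier and syncytin receptor, by -0.83), with a median of 2.07 against -0.01 over all genes. ERVFRD-1 had a lowest, median and highest level of 30.02, 94.15 and 499.2 CPM against 0, 2.002 and 192.8 CPM, higher in 12 of 12 embryos (3.54 ± 0.62, edgeR adjusted p = 0.00145). HOPX, a homeodomain protein without DNA binding of its own, had 126.3, 1233 and 1644 CPM against 1.318, 48.66 and 810.7 CPM (4.04 ± 0.65, edgeR adjusted p = 0.00116), again in 12 of 12. GATA2 was higher by 1.61 ± 0.15 (medians 789.1 and 216.6 CPM), GCM1 by 1.18 ± 0.21 (471.2 and 168.9 CPM), and TBX3, VGLL3, ARID5B and TFAP2A by 2.50, 2.31, 2.17 and 1.34. In all, 10 of 24 transcription factors were higher and 2 lower. CYP11A1 and HSD3B1 were higher by 1.72 and 1.55, each in 12 of 12 embryos, among 4 of 9 steroid genes.

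Part of the invasive genes were higher in cells with a high hormone score. Of 29 tested 9 were higher and 0 lower (median 0.61). MMP15 had 90.81, 223.0 and 736.1 CPM in cells above the median and 15.32, 39.61 and 93.66 CPM below it, higher in 12 of 12 embryos (2.69 ± 0.26, edgeR adjusted p = 9.36e-07). FSTL3, ADAM19, LAIR2, ITGA5, MMP2, PECAM1 and MMP14 were higher by 2.62, 2.26, 2.20, 1.84, 1.55, 1.55 and 1.29. LAIR2 had medians of 4037 and 784.7 CPM and was higher in 11 of 12. The following members were picked after their values were seen. PRG2 (1.05, edgeR adjusted p = 0.373, higher in 7 and lower in 5 embryos), MMP12 (1.31, edgeR adjusted p = 0.536), the serine protease HTRA4 (1.17, edgeR adjusted p = 0.297) and fibronectin FN1 (0.18, edgeR adjusted p = 0.73, 6 embryos each way) did not pass. For PRG2, MMP12 and HTRA4 the estimates were near that of MMP14, so a missed threshold does not set them apart from the called genes.

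Proliferating genes and part of the cytotrophoblast genes were among those lower in cells with a high hormone score. Of 39 proliferating genes 16 were lower and 0 higher (median -0.68), among them PLK1, CCNB2, TOP2A and MKI67 with -1.10, -1.03, -1.02 and -0.94. Of 17 cytotrophoblast genes 6 were lower and 2 higher. After thinning 10 were tested, with 2 lower (LRP2 and ITGA6) and 3 higher (KRT7, KRT8 and KRT18). TP63, TEAD4, FGFR2 and YAP1, given next, were not among the calls after thinning. LRP2 had medians of 87.24 and 279.8 CPM (-1.80 ± 0.27, lower in 12 of 12 embryos). TP63, a factor of epithelial progenitors, had 11.8 and 36.12 CPM (-1.29 ± 0.31, 11 of 12), and TEAD4, FGFR2, ITGA6 and YAP1 differed by -1.56, -0.96, -0.80 and -0.65. The keratins KRT18 and KRT8 went the other way, by 1.20 and 0.85. Further genes lower by most were FBXW10, BAG2, FBN2, the gastrin receptor CCKBR, RNF43 (a brake on Wnt receptors) and MSI2, by -3.63, -1.98, -1.95, -1.81, -1.80 and -1.69. The mesenchymal marker list had 0 of 6 genes called.

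**Figure D3:**
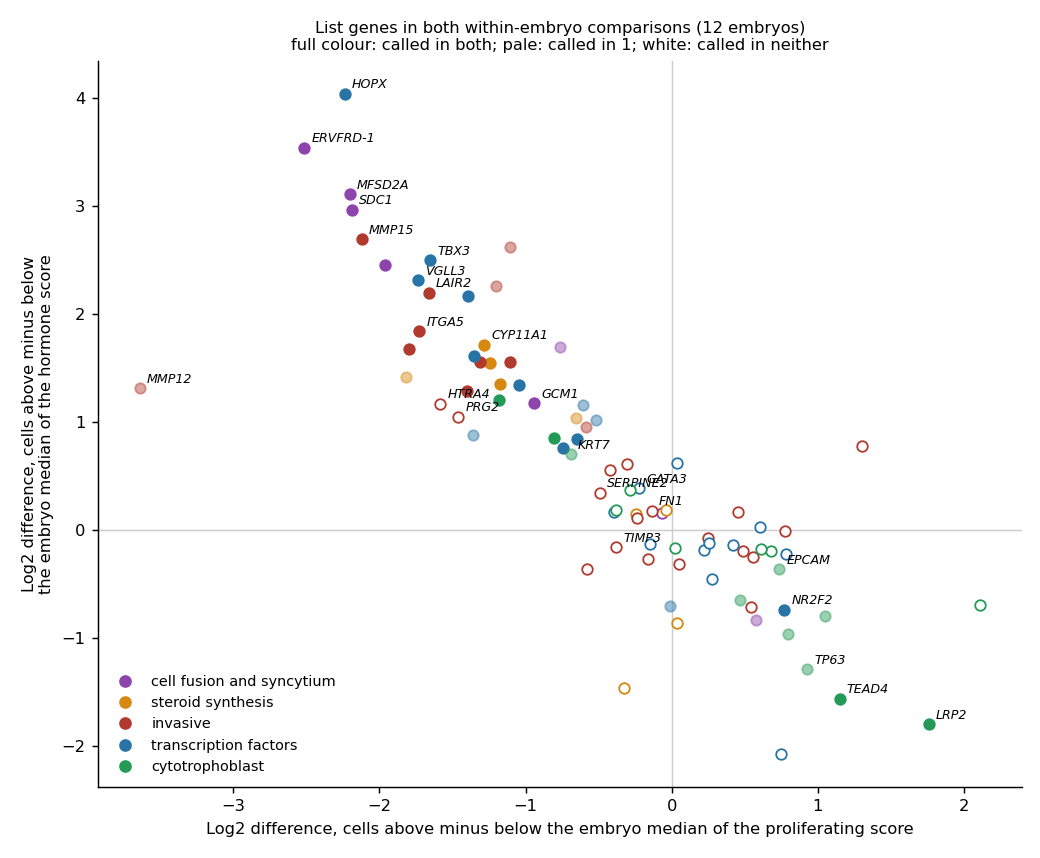
Log2 difference of list genes between trophoblast cells above and below the embryo median of the proliferating score (horizontal) and of the hormone score (vertical), 12 embryos, both made from the same cells; full colour marks genes called in both. Fusion genes such as ERVFRD-1 (-2.51 and 3.54) lie upper left, LRP2 (1.76 and -1.80) and TEAD4 lie lower right, and FN1, SERPINE2 and TIMP3 lie near the centre.

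Change with day was tested over days 11 to 14 in the 13 embryos with at least 5 trophoblast cells (355 cells). edgeR called 17 of 12582 genes (0.135%), with 14 rises (0.111%) and 3 falls (0.0238%), while an unadjusted p under 0.05 was reached by 1609. The 5 markers of the type were not called: per day, KRT7 moved by 0.56, INSL4 by 0.55, GATA3 by -0.30, CGA by -0.10 and GCM1 by -0.06 on the log2 scale (edgeR adjusted p from 0.0791 to 0.901). CGA stood at 16820 and 18000 CPM on day 11, from 5333 to 12590 CPM on day 12, at 8962 and 5966 CPM on day 13 and from 7489 to 17930 CPM on day 14. Day 11 lay above days 12 and 13, and day 14 overlapped all of them.

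CRH rose by most, by 2.72 ± 0.44 log2 per day (edgeR adjusted p = 0.032). It had 0.2296 and 0 CPM on day 11, 0, 0, 11.24, 9.362 and 5.047 CPM on day 12, and 1.956 and 18.39 CPM on day 13. On day 14 it had 99.85, 151.6, 117.9 and 229.6 CPM, so every day 14 embryo lay above every earlier one. The call was lost without day 11 replicate 1 or 2, day 13 replicate 2 or day 14 replicate 3. CRH was the only called gene of 11 hormone genes tested, whose median was 0.55 per day against 0.00 (0.00146) over all genes. LEP, picked after its values were seen, missed the threshold (1.30 per day, edgeR adjusted p = 0.0686), with 463.6, 1297, 1108 and 1488 CPM on day 14 and 317.2 CPM in the highest earlier embryo.

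The other rises included genes of matrix and contractile proteins. TAGLN, an actin-binding protein of contractile cells, rose by 1.66 ± 0.24 per day (edgeR adjusted p = 0.0149), with 15.38 and 23.87 CPM on day 11 and 85.09, 704.4, 602.8 and 463.5 CPM on day 14. MFAP5, a microfibril protein, rose by 1.69 ± 0.25 (edgeR adjusted p = 0.0146), from 11.02 and 5.153 CPM on day 11 to 19.97, 90.83, 416.3 and 184.9 CPM on day 14. ANXA1 (annexin A1), HSD11B1 (which makes cortisol from cortisone), FN1, the basement membrane genes HSPG2 and COL4A1, the tropomyosin TPM2 and FXYD5 rose by 1.77, 1.68, 1.42, 1.29, 1.12, 1.18 and 1.12. Day 14 replicate 3 stood apart in several of them, with 1381 CPM of ANXA1 and 2446 CPM of FN1 against at most 253.5 and 606.4 CPM in any other embryo. Without it FN1 moved by 0.95 per day (edgeR adjusted p = 0.0682) and ANXA1 by 1.20. Of 13 fits that each left out 1 embryo, ANXA1 lost its call in 10, FN1 in 9, HSD11B1 in 7, TAGLN in 2 and MFAP5 in 1.

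Markers of mesenchyme moved alongside these genes. The 6 markers of that list (COL1A1, COL3A1, LUM, DCN, POSTN and COL6A3) summed to between 22.26 and 819.6 CPM in trophoblast of days 11 to 14 (median 69.14), against 887.3 to 18560 CPM in EXMC. None of the 6 was called, and their median change was 1.24 per day. TAGLN averaged 168 ± 248 CPM in trophoblast and 260 ± 257 CPM in EXMC (SD, n = 13 and 12 embryos), and FN1 averaged 2485 CPM in EXMC. MFAP5 was at 67.7 CPM in trophoblast and 5.71 CPM in EXMC. When genes at least 8 times higher in another family were left out, 15 of 11838 were called. The part of these markers in the rises was not tested.

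DEGS2, an enzyme that makes phytoceramide, fell by 3.39 ± 0.26 log2 per day (edgeR adjusted p = 3.86e-06). It had 343.2 and 193.9 CPM on day 11, 29.68, 37.41, 59.18, 53.29 and 18.93 CPM on day 12, 0.7823 and 1.839 CPM on day 13, and 0, 1.203, 0.3048 and 0 CPM on day 14. Days 11, 12 and the later pair did not overlap, and the call held without any 1 embryo. MSX2, a homeobox gene of early trophoblast, fell by 0.76 ± 0.14 per day (156.6 and 342.6 CPM on day 11, 34.44 to 71.2 CPM on day 14). WASF3 fell by 0.96. MSX2 was the only transcription factor called of 23 tested, and no fusion, steroid or proliferating gene was called.

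The change was also set against that of all other cells of the same 13 embryos. Those cells are a mix of types, and the fit had no term for the mix. A shift of the mix with day cannot be told apart from a change in trophoblast here. The difference in slope was called by edgeR for 3 of 16795 genes (0.0179%), 2 with a higher slope (0.0119%) and 1 with a lower slope (0.00595%) in trophoblast, and for no member of the lists. DEGS2 fell faster in trophoblast by 3.16 ± 0.51 per day (edgeR adjusted p = 0.0394), and 7 of 13 fits that left out 1 embryo lost this call. The glutathione-linked enzyme MGST2 and the calcium-binding protein S100A16 had higher slopes in trophoblast by 1.69 ± 0.26 and 1.50 ± 0.22 (edgeR adjusted p = 0.0163 each). S100A16 kept its call without any 1 embryo, although its levels overlapped between days, with 33.98 and 21.7 CPM on day 11 and 30.39, 60.15, 104.2 and 8.024 CPM on day 14. MGST2 was lower in trophoblast (10.1 ± 12.8 CPM) than in EXMC (113 ± 61.7 CPM). Both genes had their highest family mean of days 11 to 14 in VE/YE. Trophoblast held 0.0695 of that mean for MGST2 and 0.0465 for S100A16. The 5 markers had differences in slope between -0.20 and 0.14 (edgeR adjusted p from 0.929 to 0.97).

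On day 17, 3 embryos had 10, 6 and 5 trophoblast cells, and day 16 had 3 cells in all. CGA was at 77.73, 41.9 and 55.64 CPM in the day 17 embryos, below the lowest of the 13 earlier embryos (5333 CPM). LHB and CRH were counted in 0 of 24 cells of days 16 and 17, which allows a share of up to 14.2% of cells with a count (exact 95% binomial interval). LEP had 0, 12.67 and 0 CPM, and ERVFRD-1 1.127, 0 and 0 CPM on day 17. GCM1 (446.1, 408.3 and 417.3 CPM), GATA3 (309.8, 537.9 and 315.3 CPM) and INSL4 (340.2, 489.2 and 241.1 CPM) lay within the range of days 11 to 14. The median depth of these 24 cells was 57264 counts.

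Invasive genes were high on day 17. PRG2 had 12320, 1539 and 6470 CPM there, against 0.2295 to 53.83 CPM in 12 of 13 earlier embryos and 5468 CPM in day 14 replicate 3. HTRA4 had 1657, 816.6 and 680.1 CPM, against 400.8 CPM in day 14 replicate 3 and at most 47.75 CPM in the others. With the 3 day 17 embryos in the fit (no day 16 embryo had the 5 cells needed), edgeR called 1813 of 12205 genes (14.9%; 985 higher with day, 8.07%, and 828 lower, 6.78%). Of 28 invasive genes 18 rose, such as SERPINE2 by 1.48, HTRA4 by 1.50, PLAC8 by 0.90 and the collagen receptor subunit ITGA1 by 0.62 per day. Of 11 hormone genes 2 fell (PGF and ADM) and 1 rose (INHBA), and CGA missed the threshold (-0.99 per day, edgeR adjusted p = 0.0558). Of 9 steroid genes 3 fell (CYP11A1, FDXR and POR), and of 8 fusion genes 2 fell (ERVFRD-1 and OVOL1) and 1 rose (ANXA5). All 6 mesenchymal markers rose as well, from 438.9 to 1641 CPM in sum on day 17. Their part, and that of the few cells of these embryos, was not tested.

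**Figure D4:**
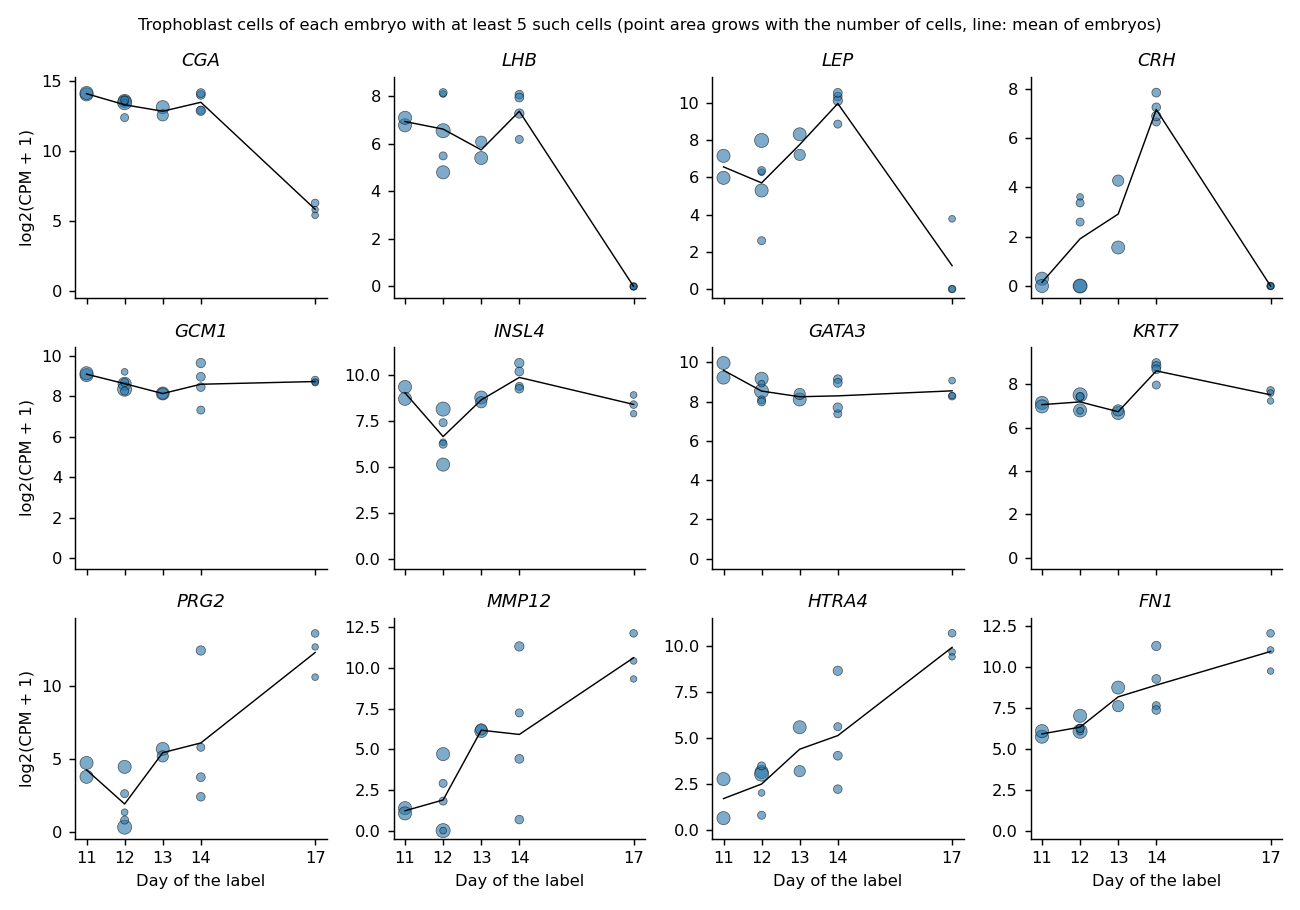
Level of 12 genes, log2(CPM + 1), in the summed trophoblast cells of each embryo with at least 5 such cells, by labelled day; point area grows with the number of cells and lines join means of embryos. CGA is at 41.9 to 77.73 CPM on day 17 against 5333 CPM or more before, PRG2 on day 14 is high only in replicate 3, and GCM1 stays in 1 range.

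The high PRG2 values came from a small number of cells. A level of 1000 CPM, chosen after the values were seen, was reached by 7 of 19 cells of day 14 replicate 3, 2 of 12 of day 14 replicate 1, 1 of 44 of day 13 replicate 1 and no cell of the other embryos of days 11 to 14. On day 17 it was reached by 6 of 10, 3 of 6 and 2 of 5 cells. In day 14 replicate 3 the 7 cells had medians of 539.4 CPM for CGA, 1430 CPM for MMP12, 2112 CPM for FN1, 1056 CPM for SERPINE2, 4858 CPM for MMP2 and 7.192 CPM for GATA2. The other 12 cells of that embryo had 11170, 14.45, 413.4, 34.49, 597.2 and 355.5 CPM for the same genes. Within this embryo, the PRG2 cells were thus lower in the median for CGA and GATA2 and higher for MMP12, MMP2, FN1 and SERPINE2, but not for TIMP3 (11.99 against 22.83 CPM) or COL1A1 (49.68 against 84.64 CPM). They were also deeper (median 361500 against 94048.5 counts), and the part of depth was not tested. GCM1 was at 700.3 and 398.0 CPM, and the mesenchymal gene COL3A1 at 109.7 and 203.8 CPM, so COL3A1 was not higher in the PRG2 cells.

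Day 17 cells differed with PRG2 in part of the same genes. The 11 cells above 1000 CPM of PRG2 had medians of 4231 CPM for MMP12, 1859 CPM for HTRA4, 4207 CPM for SERPINE2, 5041 CPM for MMP2, 12820 CPM for LAIR2 and 1120 CPM for PECAM1 (a surface protein of endothelium and of invading trophoblast). The other 10 had 0, 0, 30.7, 183.8, 165.8 and 0 CPM. MKI67 was at 0 against 36.31 CPM and GCM1 at 468.2 against 57.12 CPM. CGA was low in both sets (54.95 and 85.12 CPM), and no cell of day 16 or 17 reached 1000 CPM of CGA. COL3A1 was at 208.1 and 191.5 CPM. Other genes differed from day 14 replicate 3. INSL4, CYP11A1 and TIMP3 had day 17 medians of 156.1, 243.7 and 357.8 CPM in the PRG2 cells. In the other 10 cells they had 0, 14.52 and 96.77 CPM. In day 14 replicate 3 the PRG2 cells had 711.2, 332.0 and 11.99 CPM for these genes, against 848.6, 296.8 and 22.83 CPM. Cells with at least 1000 CPM of both CGA and PRG2 numbered 4, of which 2 came from day 14 replicate 3 and 1 each from day 14 replicate 1 and day 13 replicate 1.

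**Figure D5:**
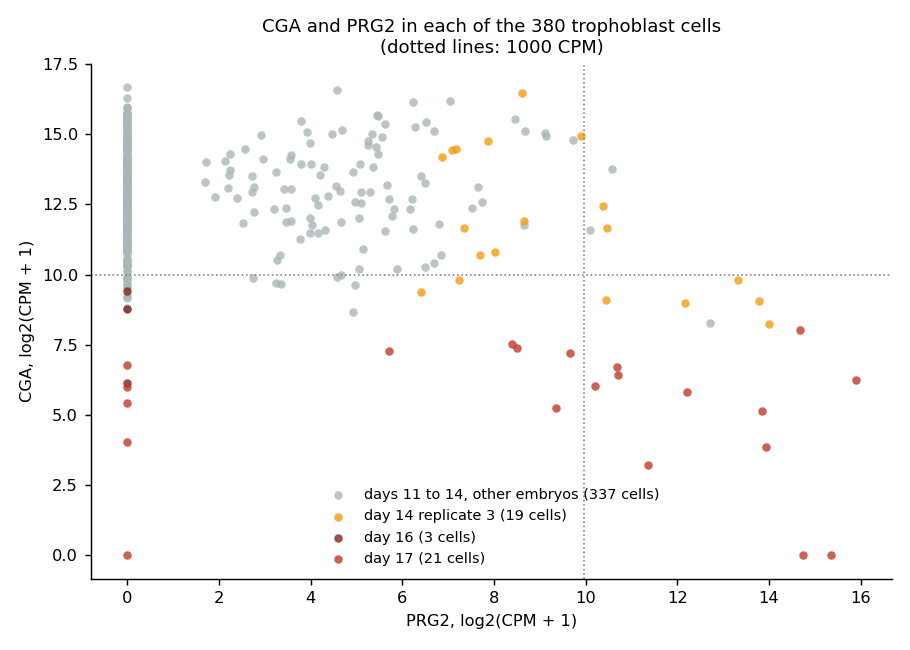
CGA against PRG2, log2(CPM + 1), in each of the 380 trophoblast cells, with day 14 replicate 3 and days 16 and 17 in colour and dotted lines at 1000 CPM. Most cells of days 11 to 14 lie above the CGA line with little or no PRG2, the PRG2-rich cells of day 14 replicate 3 and day 17 lie mostly below it, and 4 cells lie above both lines.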

How the data were processed

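The deposited table holds whole-number counts per gene (30792 genes) and cell, per the file headers, with the authors' annotation of each cell. The submitters' processing notes name STAR, an aligner, and no other tool. The genome build, the filters on cells and any collapsing of reads to molecules are not stated in the sources at hand. All 1453 cells were kept. Cells had been picked singly, so doublets were not searched for. Each cell name starts with a code for its embryo, and barcodes were not compared between embryos. Of 16890 LOC features, 3273 were given a symbol by gene number from RefSeq's table of assembly T2T-MFA8v1.1, which left 6.99% of counts without one.

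Counts were summed per embryo over at least 5 cells, or 10 trophoblast cells for comparisons within embryos, filtered with filterByExpr, scaled with TMM and tested in R 4.3.3 with edgeR 4.0.16 (glmQLFit, robust, and glmQLFTest). A gene was called when its p, adjusted by Benjamini-Hochberg over all genes tested, was under 0.05. DESeq2 1.42.0 was an alternative. Levels (CPM) are counts scaled to a library of 1000000 after TMM. On simulated counts with known changes, 84% of genes changed by 1 log2 per day and 67% and 73% of those changed by 1 log2 between cells above and below the proliferating and hormone medians were recovered. In these fits 9, 3 and 4 unchanged genes were called. Only genes with at least 20 CPM were changed. The simulated counts had no embryo effects and no split of cells by a score, so the shares hold for such counts only. The members and gene lists were chosen with earlier results of these data known. Of the lists, 14 of 25 hormone genes, 8 of 11 fusion genes and 32 of 33 invasive genes were matched by name. Named genes are the trophoblast markers, the 20 highest median log2 ratios among marked genes, the 10 largest rises and falls among called genes with at least 20 CPM, and up to 8 called members of each list. 1 called member of the invasive list is not reported here.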

Additional observations from a re-analysis of the deposited data

Results flagged for a closer look

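In groups of 4 or 5 embryos, 27 were examined for a value far from the rest, of which chance sets apart about 1 in 20. The share of trophoblast among annotated cells was lowest in day 16 replicate 3 (0.0%). The others of day 16 had 1 trophoblast cell each (1.14, 1.16 and 1.3%), so this is 0 cells against 1. CGA was lowest among day 12 embryos in replicate 5, at 5333 CPM. The median fusion score of trophoblast cells was highest among day 12 embryos in replicate 3 (3.94), and the median cytotrophoblast score was lowest among day 14 embryos in replicate 3 (2.81), the embryo that holds 7 of the cells rich in PRG2. A difference in slope between trophoblast and the other cells of the same embryos was found with edgeR's quasi-likelihood test for DEGS2 (-3.16 log2 per day), MGST2 (1.69) and S100A16 (1.50).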

How the results depend on the processing

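The count of genes that changed with day (17) was 409 with DESeq2, 91 without a filter, 10 with at least 10 cells per sum, 1813 with all days (which adds the 3 day 17 embryos) and 5 with developmental stage labels only, and ran from 1 (without day 11 replicate 2) to 55 (without day 14 replicate 1) when embryos were left out. The count of differences in slope (3) was 11 with DESeq2-style size factors, 211 with DESeq2, 59 without a filter and 5 with at least 10 cells, and 1 (without day 11 replicate 1) to 27 (without day 14 replicate 1) without 1 embryo. Thinning moved the counts within embryos from 2011 to 1283 and from 2190 to 1247, with fewer genes tested, and leaving out 1 embryo gave 1683 to 2185 and 1761 to 2398. The 10 marked genes became 0 at 8-fold and 10 to 27 without 1 embryo. The median share of cells with a count over 86 list genes fell from 62.8% to 31.3% on thinning. The median rho of -0.57 was -0.32 unthinned, and -0.576 to -0.573 without 1 embryo. The sign turned, always without a call, for the day slope of CGA after thinning (0.0628) and for that of GCM1 with all days (0.01005) and without day 14 replicate 1 (-0.2355 to 0.0201 when embryos were left out). In the difference in slope, leaving out 1 embryo gave -0.2742 to 0.00916 for CGA, -0.1177 to 0.3083 for GATA3, -0.3535 to 0.02898 for GCM1 and -0.02388 to 0.3344 for INSL4. In these the sign turned without replicate 3 for CGA, 2 or 4 (-0.08228) for GATA3, 1 for GCM1 and 4 for INSL4, all of day 14. Beyond what is named, the cause was not tested. No paired analysis was possible because embryos of different days are different embryos whose numbers were given in accession order, and the embryo was the block wherever cells of 1 embryo were compared.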
